A study of Mus musculus with 23 samples.

Results

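The 10 genes described here act in mitochondrial fusion, the merging of separate mitochondria into one. They were taken by symbol from both deposited gene tables, where they are 10 of 56196 listed genes: the mitofusins Mfn1 and Mfn2, the inner membrane fusion GTPase Opa1, the proteases Oma1, Yme1l1 and Afg3l2 that act on or beside Opa1, and the further factors Slc25a46, Pld6, Miga1 and Miga2. The study measured poly(A) RNA in mouse oocytes and early embryos labelled Eif4enif1+/- (het) or WT; Eif4enif1 encodes 4E-T, a partner of the cap-binding protein eIF4E found in cytoplasmic mRNA granules. Its title names oocyte mitochondrial dynamics and subfertility as the subject. Untreated germinal vesicle (GV) oocytes, fully grown and paused in meiosis, gave ribosome-bound mRNA (the translatome) and total mRNA (the transcriptome) from the same sample, with 2 libraries per fraction and genotype. Embryos gave 3 libraries for each of 5 groups: WT 1-cell, het 1-cell, WT 2-cell after 24 h of culture, het 2-cell after 24 h of culture, and het embryos that had remained at 1 cell after 24 h of culture (arrested). The labels do not say whether an embryo's genotype is its own or its mother's, and they give neither strain, mouse age nor how the Eif4enif1 allele was made.

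Mitochondria fuse in 2 steps. Mitofusins on the outer membranes of adjacent mitochondria tether and merge those membranes, and Opa1 then merges the inner membranes and keeps cristae in shape. Opa1 works as a mixture of long and cleaved forms, which the inner membrane proteases Oma1 and Yme1l1 produce. Fully grown mouse oocytes carry many small, round mitochondria that pass to the embryo, and oocyte growth in mice is known to depend on Mfn1. A GV oocyte makes little new RNA, and the mouse embryo begins its main wave of transcription at the 2-cell stage, when much of the stored maternal mRNA is cleared.

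All positions are on mm10. Mfn1 lies on the plus strand of chromosome 3 from 32529465 to 32579239. Mfn2 lies on the minus strand of chromosome 4 from 147873599 to 147904704 and contains a processed pseudogene, Gm13156, on the opposite strand. Opa1 lies on the plus strand of chromosome 16 from 29579334 to 29654884. Oma1 (chromosome 4, 103313812 to 103371868, plus strand) encodes a stress-activated metalloprotease that cleaves Opa1. Yme1l1 (chromosome 2, 23156369 to 23199260, plus strand) encodes the intermembrane-space AAA protease that also cleaves Opa1. Afg3l2 encodes a subunit of the matrix AAA protease and Slc25a46 an outer membrane protein related to solute carriers. Pld6 (chromosome 11, 59783897 to 59787645, minus strand) encodes MitoPLD, an outer membrane phospholipase-family protein that also acts in the piRNA pathway. Miga1 (chromosome 3, 152273849 to 152340407, minus strand) and Miga2 (chromosome 2, 30364233 to 30385521, plus strand) encode the mitoguardins, which bind MitoPLD. Slc25a46 overlaps the gene B930094E09Rik and Miga2 the gene Gm47292, so counts of Mfn2, Slc25a46 and Miga2 may include reads of an overlapping gene.

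Sequence around the annotated start site is shown for Yme1l1, which rose between the 1-cell and 2-cell stages, and for Oma1 and Opa1, which fell. These 3 members were called in both genotypes, kept their WT calls under every alternative run and have a single start-site window in the table. Miga2, which rose more, has 3 windows and is not printed. The windows are RefSeq promoters on GRCm38.p6, chr2:23156255-23156554 for Yme1l1, chr4:103313596-103313895 for Oma1 and chr16:29579084-29579383 for Opa1, all on the plus strand. Capitals mark matches on either strand to the CCAAT box (CCAAT), the GC box (GGGCGG), the CRE core (TGACG) and the core of the NRF1 site, the long capital run of the Opa1 window.
Yme1l1 promoter: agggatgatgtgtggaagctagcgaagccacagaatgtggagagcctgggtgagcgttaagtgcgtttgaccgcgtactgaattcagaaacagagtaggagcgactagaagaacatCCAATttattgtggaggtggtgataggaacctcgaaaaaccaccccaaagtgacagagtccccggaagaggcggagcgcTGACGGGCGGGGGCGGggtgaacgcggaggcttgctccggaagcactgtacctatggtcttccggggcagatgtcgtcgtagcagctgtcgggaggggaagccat
Oma1 promoter: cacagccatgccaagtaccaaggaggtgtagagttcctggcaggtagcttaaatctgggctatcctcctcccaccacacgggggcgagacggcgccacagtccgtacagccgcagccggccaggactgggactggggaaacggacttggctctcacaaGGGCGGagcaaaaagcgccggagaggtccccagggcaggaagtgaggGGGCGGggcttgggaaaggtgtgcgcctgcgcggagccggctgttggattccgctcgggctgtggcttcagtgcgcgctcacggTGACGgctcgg
Opa1 promoter: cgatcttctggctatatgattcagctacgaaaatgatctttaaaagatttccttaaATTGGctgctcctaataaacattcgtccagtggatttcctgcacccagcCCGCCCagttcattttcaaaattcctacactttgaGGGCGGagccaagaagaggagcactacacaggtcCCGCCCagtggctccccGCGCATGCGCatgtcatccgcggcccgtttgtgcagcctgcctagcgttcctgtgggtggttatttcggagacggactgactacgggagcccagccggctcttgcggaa
The Yme1l1 window held 1 CCAAT box, 2 adjoining GC boxes and 1 CRE core, which overlaps the first GC box. The Oma1 window held 2 GC boxes and 1 CRE core, and the Opa1 window 3 GC boxes, 1 CCAAT box and 1 NRF1 core. Of 32851 promoter windows of the same length, 35.7% held a GC box, 37.4% a CCAAT box, 20.8% a CRE core and 0.971% the NRF1 core. No window of the members in the table held the TATA box core TATAAA, which 13.6% of all windows held; 7 of the 10 members had an entry.

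The ends of the mRNAs were searched for the cytoplasmic polyadenylation element (TTTTAT or TTTTAAT on the RNA strand), a short motif through which stored oocyte mRNAs are known to be re-adenylated. It lay in the last 150 bases of the annotated 3′ UTR of Mfn1, Oma1, Afg3l2 and Slc25a46, 4 of the 10 members, and in 23.5% of 18507 genes. The matches of Mfn1 (chr3:32579164-32579193) and Oma1 (chr4:103366328-103366357) are shown in capitals, on the plus strand, from GENCODE M21 transcripts, because both mRNAs were abundant in oocytes and fell by the 2-cell stage.
Mfn1 window: tttacaaaacatTTTTATaagtatgcaagc
Oma1 window: atttttctaggtTTTTATctttcatgaaat
Of the 3 members that fell in WT embryos between these stages, Mfn1 and Oma1 had the element and Opa1 did not, and none of the 4 that rose had it. The search used a single annotated transcript per gene. The polyadenylation signal (AATAAA or ATTAAA) lay in the last 40 bases of 73.4% of genes. It was missing there for Opa1, Miga2, Slc25a46 and Pld6, so a missing element in Opa1, Miga2 or Pld6 rests on less certain ends. These matches are letters in a window and were not tested for binding or for a role.

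Libraries held 3.62 M to 50.49 M counts in GV oocytes and 5.6 M to 40.38 M in embryos. Eif4enif1 was lower in every het than in every WT library in both GV fractions and at both embryo stages, at 97.1 to 150 against 270 to 312 CPM (counts per M counts of the library after TMM scaling) in the translatome. In arrested embryos it held 110, 28.5 and 62.7 CPM. Het 1-cell libraries 1 and 3 stood apart: their 100 most abundant genes held 6.34% and 5.53% of counts, against 32.06% to 38.05% in the other 4 1-cell libraries, so results that rest on them are also given without them. Oocyte markers (12 of 12 detected in each group, 17317 to 64530 CPM summed) marked the GV libraries. In het 1-cell libraries 1 and 3 they summed to 1630 and 1346 CPM, against 6928 to 8306 CPM in the other 4 1-cell libraries. The sums of these 2 libraries lay within the range of the 2-cell embryos, 1177 to 2574 CPM. Summed 2-cell-stage markers were 609 to 2976 CPM in 2-cell and 136 to 278 CPM in 1-cell embryos, where Zfp352 was at 0. They were 441, 3147 and 2255 CPM in the 3 arrested libraries, so these libraries were not alike. No label ties a replicate to its own animal, so p-values measure only how these samples spread, possibly for technical reasons.

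In WT oocytes the fusion genes spanned a wide range of levels. Oma1 was the most abundant per length of exon in total mRNA, at a mean of 32.0 CPM per kb, followed by Mfn1 at 7.70, Afg3l2 at 4.37 and Opa1 at 2.01 CPM per kb. Yme1l1 (1.22), Pld6 (1.16), Mfn2 (1.15) and Slc25a46 (1.09 CPM per kb) lay close together. The mitoguardins were at the lower end, with Miga2 at 0.0721 and Miga1 at 0.013 CPM per kb. Miga1 rested on 3 and 10 counts in the WT transcriptome libraries. Mfn1 thus outweighed Mfn2 in oocytes: the count ratio of Mfn2 to Mfn1 was 0.156 and 0.1 in WT total mRNA and 0.161 and 0.160 in WT ribosome-bound mRNA. Levels in all 23 libraries appear in the plot of CPM by group.

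**Figure D1:**
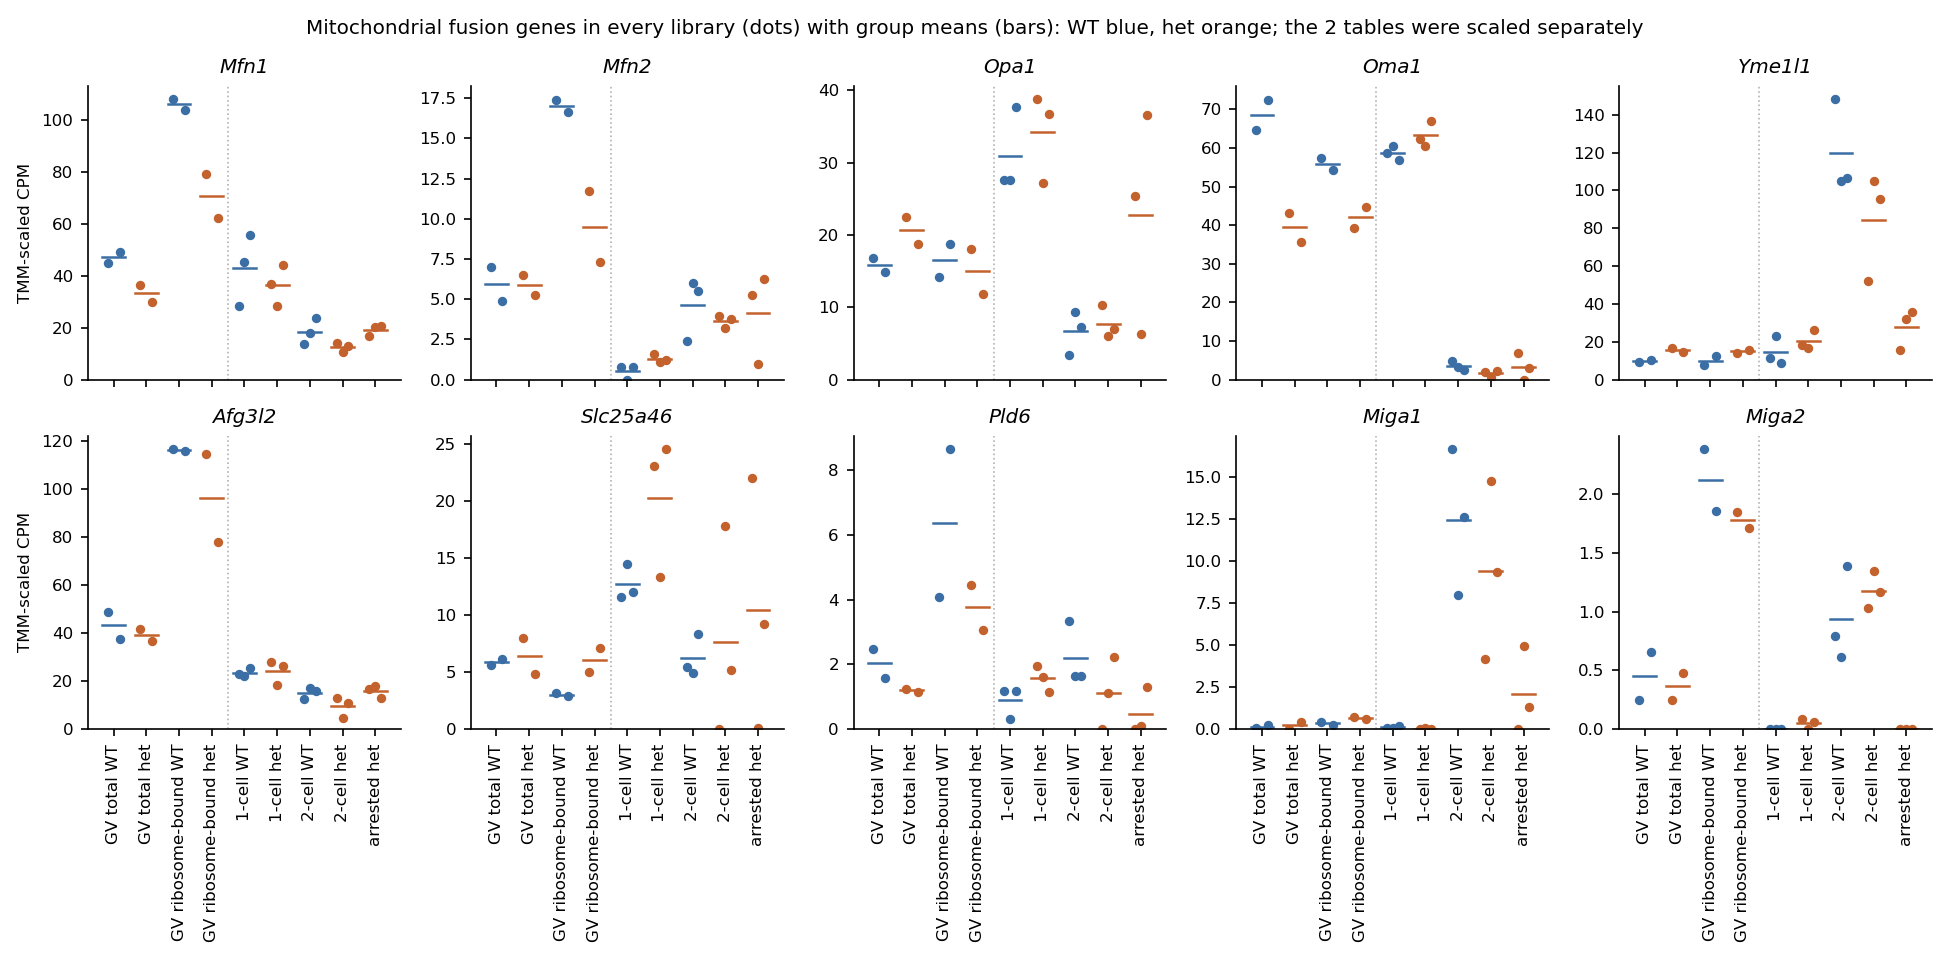
TMM-scaled CPM (y axis, own scale from 0 in each panel) of the 10 fusion genes in 9 groups (x axis), where each dot is a library and each bar a group mean, WT in blue and het in orange. Mfn1, Mfn2 and Afg3l2 stood highest in ribosome-bound oocyte mRNA, Oma1 dropped from 56.9 CPM or more in every 1-cell library to 4.76 CPM or less in every 2-cell library, and Yme1l1 and Miga1 were highest in 2-cell embryos.

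The first comparison asked which fusion mRNAs are over-represented on ribosomes in oocytes. In WT oocytes both mitofusins, Afg3l2, Pld6 and Miga2 were higher in ribosome-bound than in total mRNA, 5 of 10 members, against 8.95% of all 22409 genes tested. None of the 10 was lower, against 5.64% of all genes. The median log2 difference was 1.2 over the 10 genes and -0.04 over all genes tested. The 3269 calls over all genes fell to 1195 and 1850 without WT transcriptome library 1 or 2 and to 1992 without WT translatome library 1. All members passed the filter on low counts in both tables, and calls are adjusted p-values under 0.05 from the edgeR quasi-likelihood test over the whole table.

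Mfn1, the more abundant mitofusin, stood at 45.0 and 49.1 CPM in WT total mRNA and at 108 and 104 CPM in WT ribosome-bound mRNA. The difference was 1.17 on the log2 scale (SE 0.24, adjusted p = 0.00915). Het oocytes held 36.5 and 29.9 CPM in total and 79.2 and 62.1 CPM in ribosome-bound mRNA, a log2 difference of 1.10 (SE 0.25, adjusted p = 0.0180). Fractions did not overlap in either genotype. Mfn2 was at 7.02 and 4.92 CPM in WT total mRNA and at 17.4 and 16.6 CPM in WT ribosome-bound mRNA (log2 1.51, SE 0.33, adjusted p = 0.0120). In het oocytes it was at 6.50 and 5.24 CPM in total and 11.7 and 7.32 CPM in ribosome-bound mRNA (log2 0.73, SE 0.35, adjusted p = 0.207). The 2 genotypes' Mfn2 differences were not shown to differ, since the interaction was -0.78 (SE 0.48, adjusted p = 0.649). The WT calls of Mfn1 and Mfn2 were lost without WT transcriptome library 1 (Mfn1, adjusted p = 0.067) or 2 (Mfn2, adjusted p = 0.067), and that of Mfn1 in het oocytes without translatome library 1 (0.177) or transcriptome library 2 (0.294).

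Opa1 and the proteases that cleave it were not called in either genotype. Opa1 was at 16.9 and 14.8 CPM in WT total and 14.2 and 18.8 CPM in WT ribosome-bound mRNA (log2 0.05, SE 0.30), with overlapping libraries. The WT difference was -0.30 (SE 0.24) for Oma1 and 0.03 (SE 0.31) for Yme1l1. Afg3l2 (chromosome 18, 67404764 to 67449172, minus strand), by contrast, went from 48.8 and 37.5 CPM in WT total mRNA to 117 and 116 CPM in WT ribosome-bound mRNA (log2 1.43, SE 0.26, adjusted p = 0.00537). In het oocytes it went from 41.8 and 36.5 to 115 and 77.9 CPM (log2 1.30, SE 0.27, adjusted p = 0.0118). The WT call of Afg3l2 held without any 1 of the 4 WT libraries, and the het call was lost without translatome library 1 (adjusted p = 0.146) or transcriptome library 2 (0.239). The test of each pairwise difference between members was not made.

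Among the other factors, Pld6 rose from 2.48 and 1.58 CPM in WT total to 4.08 and 8.64 CPM in WT ribosome-bound mRNA (log2 1.63, SE 0.46, adjusted p = 0.0314). Its value without WT translatome library 2 was 1.01 (adjusted p = 0.204), and the call was also lost without WT transcriptome library 1 (0.0642) or 2 (0.144). Miga2 went from 0.248 and 0.652 to 2.38 and 1.85 CPM (log2 2.23, SE 0.61, adjusted p = 0.0275), a call lost without WT translatome library 1 (0.0976) or transcriptome library 1 (0.171). In het oocytes Pld6 differed by 1.67 (SE 0.53, adjusted p = 0.0686), which passed with no filter on low counts (0.0231) and by DESeq2 (0.0425). Het Miga2 differed by 2.08 (SE 0.71, adjusted p = 0.0869). Slc25a46 (chromosome 18, 31556111 to 31609911, minus strand) was the one member with lower WT ribosome-bound levels by about a log2 unit, at 3.12 and 2.88 against 5.64 and 6.17 CPM, and it did not pass the test (log2 -0.97, SE 0.37, adjusted p = 0.0911). Its het fractions overlapped, at 5.01 and 7.12 against 8 and 4.81 CPM. In het oocytes 2 of the 10 members were called higher, against 6.19% of all genes, and 0 lower, against 1.91%; the median over the members was 0.92 and over all genes 0.04. The 1814 het calls over all genes fell to 1 without het transcriptome library 2, to 268 without het translatome library 1 and to 1173 without het translatome library 2.

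Markers of several cell types moved with the fraction. Summed oocyte markers were 27543 to 64530 CPM in ribosome-bound and 20826 to 24477 CPM in total mRNA of WT oocytes, and 25766 to 50611 against 17317 to 19700 CPM in het oocytes. The 15 granulosa cell markers summed to 614 to 919 against 263 to 359 CPM in het oocytes, and in WT oocytes their ranges overlapped, at 177 to 360 against 111 to 190 CPM. The 6 oviduct markers summed to 9.16 to 15.6 against 4.96 to 6.64 CPM in WT and to 28.6 to 46.1 against 16.2 to 24.0 CPM in het oocytes. No granulosa marker was at 0 throughout any of the 4 groups, while Pax8 of the oviduct list was at 0 in both translatome groups and Foxj1 in 3 of the 4 groups. Their part in the fraction differences was not tested.

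**Figure D2:**
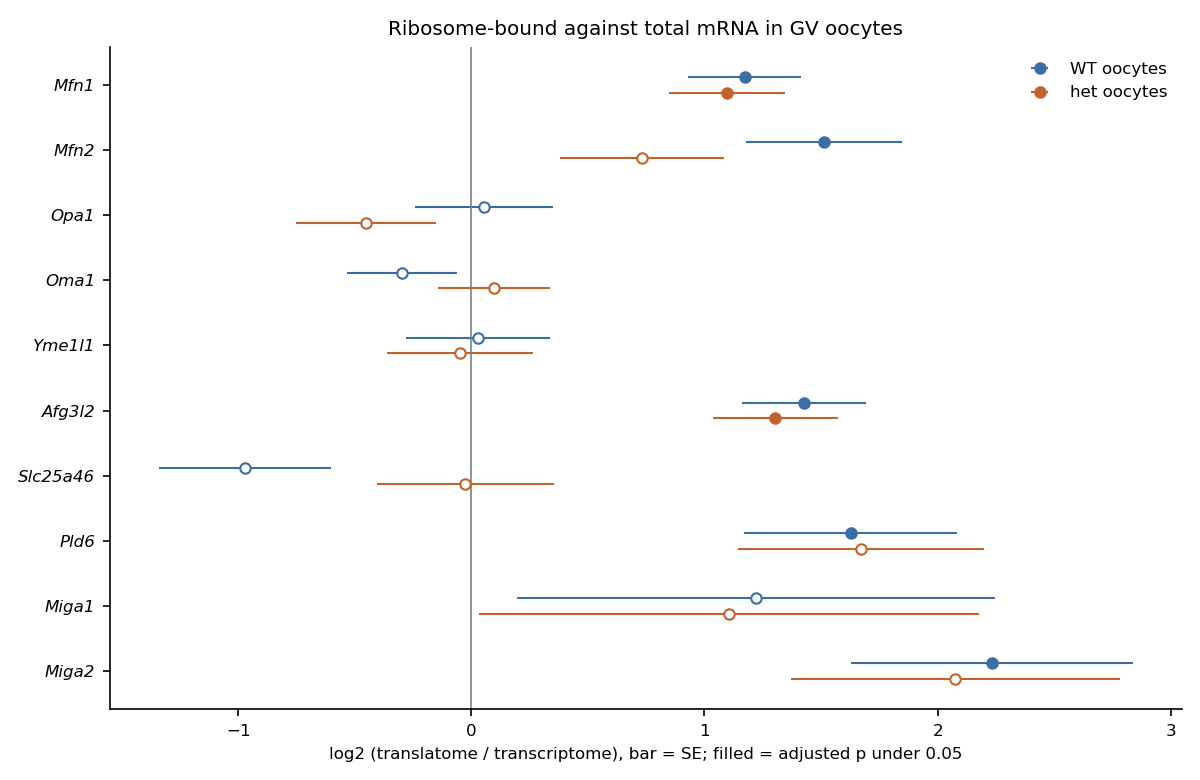
Log2 ratio of ribosome-bound to total mRNA (x axis) for each fusion gene (y axis) in WT (blue) and het (orange) GV oocytes, with SE as bars and filled points for adjusted p under 0.05. Mfn1 and Afg3l2 were called in both genotypes, and the estimates of Opa1, Oma1 and Yme1l1 lay between -0.45 and 0.10.

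The next comparison asked whether the genotypes differ in these mRNAs. No fusion gene was called between het and WT oocytes by edgeR in the translatome, where 4.61% of all genes were called, or in the transcriptome, where 2.55% were. At an unadjusted p under 0.05 there were 3 members in the translatome and 1 in the transcriptome, and DESeq2 called 0 in both. Those in the translatome were Mfn1 (log2 -0.59, SE 0.24, adjusted p = 0.181), Mfn2 (-0.83, SE 0.33, adjusted p = 0.163) and Slc25a46 (1.01, SE 0.37, adjusted p = 0.138), each with het and WT libraries that did not overlap. The one in the transcriptome was Oma1, at 64.7 and 72.4 CPM in WT and 43.3 and 35.7 CPM in het libraries (log2 -0.80, SE 0.24, adjusted p = 0.0905). Its ribosome-bound levels were 57.3 and 54.2 CPM in WT and 39.3 and 44.8 CPM in het oocytes, again without overlap (log2 -0.41, SE 0.24, adjusted p = 0.346). Yme1l1 lay on the other side in both fractions, at 9.14 and 10.4 CPM in WT total against 16.5 and 14.6 CPM in het total mRNA (log2 0.67, SE 0.31, adjusted p = 0.264). Groups here hold 2 libraries each, and the share of all genes whose het and WT libraries do not overlap was not counted. Over all genes, the 1034 translatome calls fell to 154 and 206 without het library 1 or 2 and to 403 without WT library 1, and the 572 transcriptome calls to 202 and 69 without het library 1 or 2 and to 207 without WT library 2. The granulosa and oviduct sums given above for each fraction moved with the genotype too, and were higher in every het than in every WT library of the same fraction. Ovgp1 of the oviduct list did not follow its sum. It was at 0.692 to 1.47 CPM in the het and 1.27 to 4.80 CPM in the WT translatome, and at 0.250 to 1.35 against 0.226 to 0.676 CPM in the transcriptome. Of the granulosa list, Amh was at 2.20 to 2.88 CPM in the het and 0.913 to 0.959 CPM in the WT translatome. In the transcriptome Amh was also higher in het oocytes, at 0.240 to 1.25 against 0 to 0.21 CPM. Foxl2 did not follow the sum in either fraction. Its genotypes overlapped in the translatome, at 0.836 to 1.67 CPM in het and 0.576 to 1.56 CPM in WT libraries. In the transcriptome Foxl2 was at 0.240 to 0.250 against 0.373 to 0.519 CPM. These het levels are near the floor, since 1 count was 0.250 CPM in het transcriptome library 1. The part of the granulosa and oviduct markers in these values was not tested. In bulk samples fewer cells of a type and less RNA per cell cannot be told apart. The difference of the fraction ratio between genotypes was called for 0 of 10 members, with 0 at an unadjusted p under 0.05, and for 0.0134% of all genes, a count of 3 that ranged from 0 to 10 with 1 library left out.

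After the 1-cell stage the set was reshaped gene by gene. In WT embryos Mfn2, Yme1l1, Miga1 and Miga2 rose from the 1-cell to the 2-cell stage, 4 of 10 members against 28.5% of all 23656 genes tested, and Mfn1, Opa1 and Oma1 fell, 3 of 10 against 17.9%. The median over the 10 genes was 0.33 on the log2 scale, against 0.59 over all genes. Counts over 10 genes are a description beside these shares, and they include Miga1 and Miga2, which passed the filter on low counts only through the 2-cell groups.

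The mitofusins moved in opposite directions. Mfn1 was at 28.4, 45.2 and 55.8 CPM in WT 1-cell and at 13.8, 18 and 23.5 CPM in WT 2-cell libraries, with every 2-cell library below every 1-cell library. It fell by 1.22 on the log2 scale (SE 0.38, adjusted p = 0.0177). This call was lost without WT 1-cell library 2 (adjusted p = 0.0607) or 3 (0.0911), without WT 2-cell library 1 (0.0833) or 2 (0.0616), and with no filter on low counts (0.101). Mfn2 was at 0.754, 0 and 0.771 CPM in WT 1-cell and at 2.41, 6.03 and 5.51 CPM in WT 2-cell libraries. It rose by 3.17 (SE 1.09, adjusted p = 0.0273) from 11, 0 and 15 counts. Leaving out any 1 WT 1-cell library (0.0546 to 0.0599), WT 2-cell library 2 (0.0713) or 3 (0.0625), or het 1-cell libraries 1 and 3 together (0.0544) removed that call.

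In het embryos Mfn1 went from 36.9, 28.3 and 44.3 CPM to 13.9, 10.7 and 13 CPM, a fall of 1.54 (SE 0.39, adjusted p = 0.0071). Without het 1-cell libraries 1 and 3 it was -1.31 (adjusted p = 0.186). Het Mfn2 went from 1.59, 1.08 and 1.2 CPM to 3.93, 3.20 and 3.79 CPM without overlap and did not pass (log2 1.49, SE 1.02, adjusted p = 0.255). The count ratio of Mfn2 to Mfn1 was 0 to 0.0266 in WT 1-cell and 0.174 to 0.335 in WT 2-cell libraries, and 0.0272 to 0.0432 and 0.283 to 0.298 in the het groups. Mfn1 held more counts than Mfn2 in every library at both stages.

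Opa1 fell in both genotypes. WT embryos went from 27.6, 27.6 and 37.7 CPM to 3.33, 9.29 and 7.32 CPM (log2 -2.22, SE 0.58, adjusted p = 0.00648), and this call held under every alternative run. Het embryos went from 38.8, 27.2 and 36.7 CPM to 10.3, 5.96 and 6.92 CPM (log2 -2.15, SE 0.58, adjusted p = 0.0100). Without het 1-cell libraries 1 and 3 the het value was -1.96 (adjusted p = 0.151). Neither genotype's stages overlapped.

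The proteases that cleave Opa1 moved in opposite directions. Oma1 was steady among WT 1-cell libraries, at 58.6, 60.5 and 56.9 CPM, and stood at 4.76, 3.13 and 2.52 CPM in WT 2-cell libraries (log2 -4.08, SE 1.00, adjusted p = 0.00451). In het embryos it went from 62.4, 60.6 and 67.1 CPM to 2.01, 0.711 and 2.22 CPM (log2 -5.26, SE 1.06, adjusted p = 0.00205). Both Oma1 calls held under every alternative run, including the fit without het 1-cell libraries 1 and 3. Yme1l1 moved the other way, from 11.2, 23.1 and 8.74 CPM to 148, 105 and 107 CPM in WT embryos (log2 3.06, SE 0.48, adjusted p = 0.000291), a call that also held throughout. Het embryos went from 18.4, 16.5 and 26.2 CPM to 52.3, 105 and 95.3 CPM (log2 2.05, SE 0.47, adjusted p = 0.00413), and the value without het 1-cell libraries 1 and 3 was 2.22 (adjusted p = 0.0966). Afg3l2, of the matrix protease, was lower in every 2-cell library of both genotypes and passed in het embryos only. Its WT levels were 23, 22.2 and 25.3 against 12.3, 16.9 and 15.7 CPM (log2 -0.65, SE 0.42, adjusted p = 0.215). Its het levels were 27.9, 18.5 and 26.2 against 12.9, 4.70 and 10.8 CPM (log2 -1.36, SE 0.43, adjusted p = 0.0237). That call was lost without het 1-cell library 1 (0.107) or 3 (0.0953), both of these (log2 -1.11, 0.335), het 2-cell library 2 (0.0987) or 3 (0.0527), and with no filter (0.139), and the genotypes' changes were not shown to differ (interaction -0.71, SE 0.60).

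The mitoguardins rose steeply from 1-cell levels at or near 0. Both had been detected in oocytes, where ribosome-bound Miga2 stood at 2.38 and 1.85 CPM in WT libraries. Miga1 held 1, 1 and 4 counts in WT 1-cell libraries and 525, 181 and 537 counts in WT 2-cell libraries, or 16.6, 7.97 and 12.6 CPM (log2 6.66, SE 1.41, adjusted p = 0.00182). In het 1-cell embryos it held 1 count in 1 of 3 libraries, and in het 2-cell embryos 4.18, 14.8 and 9.35 CPM. The ratio of summed levels was 376, with a 95% exact counting interval of 67.3 to 14884. Miga2 had 0 counts in all 3 WT 1-cell libraries and 25, 14 and 59 counts in WT 2-cell libraries. It was at least 16.8-fold higher at the 2-cell stage, where the floor was 3 counts summed over the group. In het embryos 2 counts at the 1-cell stage faced 78 at the 2-cell stage, a ratio of 22.8 (6.10 to 191). The WT calls of both mitoguardins held under every alternative run. In the embryo table both genes passed the filter on low counts only through the 2-cell groups, where they are high. Their calls against these groups are therefore no separate support for a difference. The het Miga2 call (adjusted p = 0.0432) was lost without any 1 of the 6 het libraries (0.0665 to 0.132), and without het 1-cell libraries 1 and 3 neither Miga1 (0.109) nor Miga2 (0.238) passed. No molecular identifiers are named in the labels, so intervals and floors cover counting error only.

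Slc25a46 and Pld6 did not pass in either genotype. Slc25a46 was at 11.6, 14.5 and 12 CPM in WT 1-cell and at 5.45, 4.93 and 8.36 CPM in WT 2-cell libraries (log2 -1.02, SE 1.35). Het 2-cell libraries were scattered, at 0, 17.8 and 5.15 CPM. Pld6 was at 1.16, 0.321 and 1.18 CPM in WT 1-cell and 3.33, 1.63 and 1.65 CPM in WT 2-cell libraries (log2 1.30, SE 1.46). The SE of both genes exceeded that of Mfn1 and of Yme1l1.

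In het embryos as a group 3 of 10 members rose between the stages, against 22.8% of all genes, and 4 fell, against 13.9%, with a median of -0.92 over the members and 0.36 over all genes. Without het 1-cell libraries 1 and 3, Oma1 was the one member still called, and the calls over all genes went from 8693 to 2017. The stage change differed between genotypes for 0 of 10 members, with 0 at an unadjusted p under 0.05 and 0 by DESeq2, and for 0.00423% of all genes, or 1 gene. That count became 143 without het 1-cell library 2, where the het 1-cell group is libraries 1 and 3 alone. Sums of markers listed for other tissues moved with the stage, but not every listed marker did. The 6 blood markers summed to 381 to 552 CPM in WT 2-cell and 0.0514 to 0.274 CPM in WT 1-cell embryos, with Ptprc and Hbb-bt at 0 in both. In WT 2-cell embryos Alas2 was also at 0 and Hbb-bs at 0 to 0.0881 CPM, so Hba-a1 and Hba-a2 made up nearly all of that sum. The 6 oviduct markers summed to 184 to 290 against 3.22 to 4.88 CPM, while Ovgp1 of that list overlapped, at 1.33 to 2.21 against 0.0685 to 1.67 CPM. Their part in the stage differences was not tested.

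**Figure D3:**
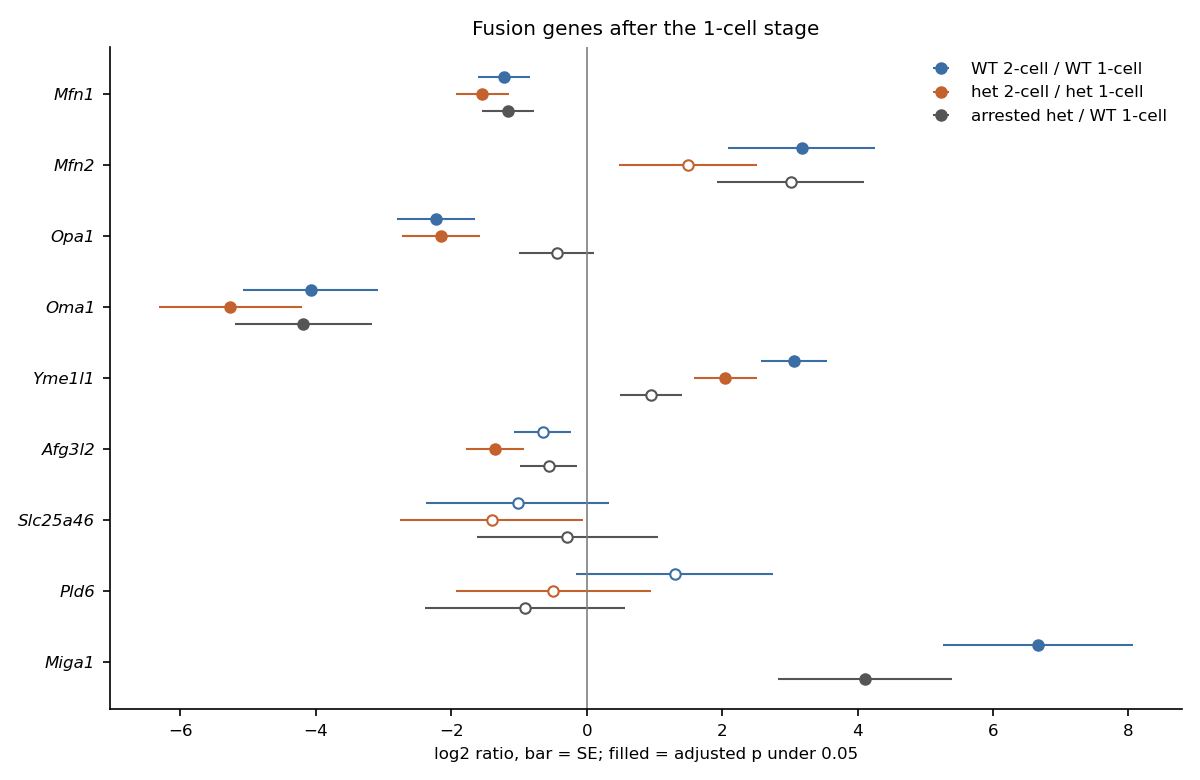
Log2 ratio (x axis) of 9 fusion genes (y axis) in WT 2-cell against WT 1-cell (blue), het 2-cell against het 1-cell (orange) and arrested against WT 1-cell embryos (grey), with SE as bars and filled points for adjusted p under 0.05. Oma1 lay between -5.26 and -4.08 in all 3, and Yme1l1 was called in both 2-cell comparisons but not in arrested embryos. Miga2, and Miga1 in het 2-cell embryos, are left out because a group held 2 counts or fewer.

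No fusion gene was called between het and WT embryos of the same stage. Of the 10 members 0 were called in 1-cell embryos, where edgeR called 0.0% of all genes, and 0 in 2-cell embryos, where it called 0.00423%. At the 1-cell stage 889 genes had an unadjusted p under 0.05, and DESeq2 called 80. There were 284 adjusted calls without het 1-cell library 2, a fit in which the het 1-cell group is libraries 1 and 3 alone. No member had an unadjusted p under 0.05 at either stage, and DESeq2 called 0 members. Estimates at the 2-cell stage included -0.56 (SE 0.38) for Mfn1, -1.07 (SE 0.91) for Oma1 and -0.51 (SE 0.45) for Yme1l1. Every het 2-cell library lay below every WT 2-cell library for Oma1, at 2.22 CPM or less against 2.52 CPM or more. For Yme1l1 the groups nearly touched, at 104.97 CPM in the highest het and 105.03 CPM in the lowest WT library. The share of all genes that separate in this way was not counted. Standard errors at this stage were 0.38 to 0.55 for Mfn1, Opa1, Yme1l1 and Afg3l2 and 0.91 to 1.44 for the other 6 members.

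Arrested embryos had been cultured as long as the 2-cell embryos without dividing, and they were compared with both stages. Oma1 was low as in 2-cell embryos, and Opa1 was high in 2 of 3 libraries as in 1-cell embryos, while Yme1l1 stayed below the 2-cell level. Against WT 1-cell embryos 1 of 10 members was higher (14.1% of all genes) and 2 were lower (5.44%), where Miga2, at 0 counts in both groups, is among the 10. Against het 1-cell embryos 1 was higher (9.97%) and 1 lower (3.91%). Against het 2-cell embryos 0 were higher (3.85%) and 2 lower (4.55%), and against WT 2-cell embryos 1 was higher (10.1%) and 2 lower (8.74%). These comparisons share the arrested libraries. Their counts over all genes moved with single libraries. Against het 2-cell embryos the 1986 calls became 4 and 2 without het 2-cell library 2 or 3, 3114 without het 2-cell library 1, and 1127 and 4004 without arrested library 1 or 2. Against WT 2-cell embryos 4455 calls became 1382, 1634 and 2747 without WT 2-cell library 1, 2 or 3. Against WT 1-cell embryos 4624 became 2644, 1940 and 2028 without WT 1-cell library 1, 2 or 3 and 7477 without arrested library 1. Against het 1-cell embryos 3283 became 1222, 1787 and 1270 without het 1-cell library 1, 2 or 3, 104 without libraries 1 and 3, and 5938 without arrested library 1.

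Blood and oviduct markers differed among the arrested libraries. The 6 blood markers summed to 7.44, 400.1 and 212 CPM in arrested libraries 1, 2 and 3, against 0.0514 to 3.98 CPM in 1-cell and 175 to 552 CPM in 2-cell embryos of both genotypes, with Ptprc at 0 in all 5 groups. The 6 oviduct markers summed to 2.54, 142 and 58.7 CPM, against 3.22 to 10.5 CPM in 1-cell and 131 to 290 CPM in 2-cell embryos. Arrested library 1 thus lay with or near the 1-cell embryos for both sums. Hbb-bs of the blood list was at 0 to 0.154 CPM and Ovgp1 of the oviduct list at 0 to 0.309 CPM in arrested libraries. The higher sums thus did not rest on these listed markers. The part of the blood and oviduct markers in the arrested comparisons was not tested.

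Oma1 held 6.78, 0 and 3.01 CPM in arrested libraries, each below every 1-cell library of either genotype. It was lower by a log2 value of -4.19 against WT 1-cell embryos (SE 1.01, adjusted p = 0.0114), a call that held under every alternative run. Against het 1-cell embryos the value was -4.30 (SE 1.01, adjusted p = 0.0134), and without het 1-cell libraries 1 and 3 it was -4.35 (adjusted p = 0.158). Its difference from WT 2-cell embryos was -0.11 (SE 0.90) and from het 2-cell embryos 0.97 (SE 0.92).

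Yme1l1 held 15.4, 32.0 and 35.6 CPM, below every 2-cell library. The difference was -2.11 from WT 2-cell embryos (SE 0.47, adjusted p = 0.00891), which held under every alternative run, and -1.60 from het 2-cell embryos (SE 0.46, adjusted p = 0.0438). The second call was lost without het 2-cell library 2 (0.155) or 3 (0.146), arrested library 1 (0.0945) or 3 (0.0520), or het 1-cell libraries 1 and 3 (0.0591). Against 1-cell embryos Yme1l1 differed by 0.95 (WT, SE 0.45, adjusted p = 0.143) and 0.44 (het, SE 0.45, adjusted p = 0.540), with overlapping libraries.

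Opa1 held 25.4, 6.33 and 36.5 CPM, so arrested library 2 lay among the 2-cell libraries and the other two lay near the 1-cell range. It was higher than in WT 2-cell embryos by 1.77 (SE 0.57, adjusted p = 0.0413), although the groups overlapped. That call was lost without any 1 WT 2-cell library (0.0751 to 0.162), without arrested library 1 (0.0786) or 3 (log2 1.24, 0.149), without het 1-cell libraries 1 and 3 (0.104) and with no filter (0.0913). Against het 2-cell embryos the value was 1.56 (SE 0.57, adjusted p = 0.0919), and it passed without arrested library 2 (log2 1.82, adjusted p = 0.0196) and by DESeq2 (0.047).

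Both mitofusins lay on the 2-cell side of the WT 1-cell libraries, and for Mfn2 this did not hold against het 1-cell embryos. Mfn1 held 16.7, 20.4 and 20.5 CPM, below every 1-cell library (log2 -1.17 against WT, SE 0.38, adjusted p = 0.0437). The call was lost without WT 1-cell library 2 (0.132) or 3 (0.176), arrested library 2 (0.0584) or 3 (0.0813), het 1-cell libraries 1 and 3 (0.0622), and with no filter (0.120). Against het 1-cell embryos it was -0.93 (SE 0.38, adjusted p = 0.111), which passed by DESeq2 (0.0318). Mfn2 held 5.27, 0.978 and 6.26 CPM, all above the WT 1-cell libraries (log2 3.01, SE 1.08, adjusted p = 0.062), and it passed without arrested library 2 (log2 3.41, adjusted p = 0.0379) and by DESeq2 (0.00194). Against het 1-cell embryos Mfn2 was at 1.68 (SE 1.03, adjusted p = 0.276), with arrested library 2 below every het 1-cell library and the other two above.

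The mitoguardins were unequal. Miga2 had 0 counts in all 3 arrested libraries and was at least 14.5-fold lower than in WT 2-cell and at least 17.1-fold lower than in het 2-cell embryos. The first Miga2 call was lost without any 1 WT 2-cell library (0.0579 to 0.0649) and the second without het 2-cell library 2 (0.102) or 3 (0.108), arrested library 1 (0.0696) or 3 (0.0525), or het 1-cell libraries 1 and 3 (0.0670). Miga1 held 0, 96 and 17 counts, so library 2 carried most of it at 4.94 CPM. Against WT 1-cell embryos it was higher by 4.11 (SE 1.29, adjusted p = 0.0366). Without arrested library 2 this was 2.38 (adjusted p = 0.183), and the call was also lost without any 1 WT 1-cell library (0.0829 to 0.132) or het 1-cell libraries 1 and 3 (0.0611). Against het 1-cell embryos the ratio was 101 (17.7 to 4006), on 113 counts against 1. That call was lost without het 1-cell library 1 (0.0876) or 3 (0.0923), both of them (0.451), or arrested library 2 (0.0748). Against WT 2-cell embryos Miga1 was at -2.55 (SE 1.13, adjusted p = 0.121), and it passed without arrested library 2 (-4.38, adjusted p = 0.0187) and by DESeq2 (0.0461). Against het 2-cell embryos it was at -2.16 (SE 1.11, adjusted p = 0.221), and without arrested library 2 at -3.98 (adjusted p = 0.0369).

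The remaining members varied among arrested libraries. Slc25a46 held 22.0, 0.0515 and 9.19 CPM and Pld6 0, 0.103 and 1.31 CPM. Afg3l2 was even, at 16.9, 18.1 and 12.8 CPM. None of the 3 was called in any of the arrested comparisons.

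The balance of the 2 Opa1-cleaving proteases can be read within each library, where scaling between libraries plays no part. This ratio was chosen after its values were seen and carries no test. The ratio of Yme1l1 to Oma1 counts was 0.141 and 0.143 in WT total mRNA of oocytes, 0.131 and 0.231 in WT ribosome-bound mRNA, and 0.351 to 0.409 in the 4 het oocyte libraries. It was 0.154 to 0.382 in WT 1-cell and 0.272 to 0.390 in het 1-cell libraries. In 2-cell embryos it was 31.2, 33.6 and 42.3 in WT and 26.0, 148 and 42.9 in het libraries. Arrested libraries gave 2.28 and 11.8 in libraries 1 and 3, between the stages, and library 2 had 622 Yme1l1 counts against 0 for Oma1, a ratio of at least 207. Oma1 held more counts than Yme1l1 in every oocyte and 1-cell library, and fewer in every 2-cell and arrested library. Counts do not allow for the longer exons of Yme1l1. Per kb of exon the ratio was 0.610 in arrested library 1, so Oma1 was the more abundant there, and 3.16 in arrested library 3. It was 6.95 or above in every 2-cell library.

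**Figure D4:**
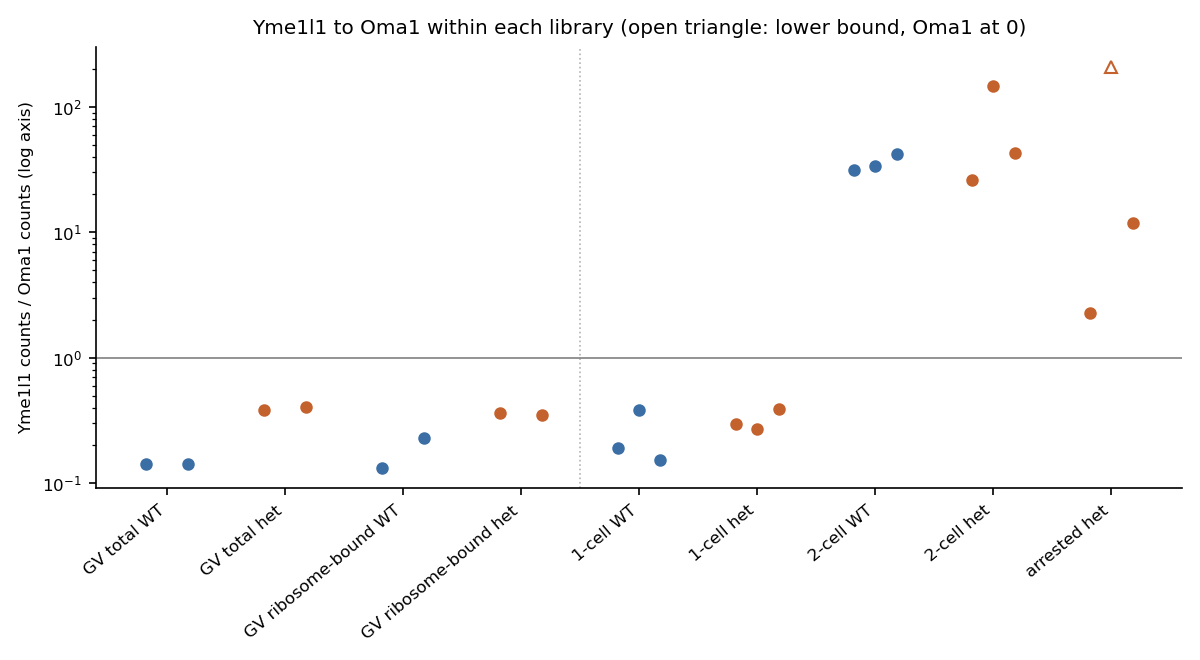
Ratio of Yme1l1 to Oma1 counts (y axis, log scale) in each of 23 libraries by group (x axis), WT in blue and het in orange; the open triangle is a lower bound for arrested library 2, where Oma1 had 0 counts. All oocyte and 1-cell libraries lie at 0.409 or below and all 2-cell libraries at 26.0 or above.

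Genes that act around fusion were read from lists of related functions. Of 8 genes of MICOS, the complex that holds crista junctions, 1 rose and 5 fell between WT 1-cell and 2-cell embryos, where 28.5% of all genes were called higher and 17.9% lower, with a median of -1.88 against 0.59 over all genes. Those with the smallest p were Apool (38.1 to 3.93 CPM, log2 -3.27, SE 0.61), Micos13 (1.95 to 71.9 CPM, log2 5.2, SE 1.10), Chchd3 (log2 -2.02, SE 0.44) and Chchd6 (log2 -2.01, SE 0.59), whose call was lost without WT 1-cell library 1 (adjusted p = 0.0756) or WT 2-cell library 3 (0.0527). In het embryos 2 of 8 rose and 4 fell, against 22.8% and 13.9% of all genes. Among these calls only that of Apool held under every alternative run. Those of Micos13, Micos10, Chchd6, Immt and Chchd3 were lost in 1, 4, 3, 3 and 8 of 11 alternatives. The fit without het 1-cell libraries 1 and 3, which leaves 1 het 1-cell library, was among them for each gene. Its log2 values were 5.08, 0.80, -2.19, -2.90 and -1.24 in that order. In arrested embryos 3 of 8 MICOS genes were higher than in WT 2-cell embryos, against 10.1% of all genes, and 1 was lower, against 8.74%. Those higher were Chchd3 (log2 2.30, SE 0.45), Apool (1.79, SE 0.58) and Chchd6 (1.75, SE 0.59), and Micos13 was lower (-3.38, SE 1.00). Only Chchd3 among these 4 kept its call under every alternative run. That of Micos13 was lost without any 1 WT 2-cell library (0.0545 to 0.0843) or arrested library 3 (0.0512). That of Apool was lost without WT 2-cell library 1 (0.136) or 2 (0.162) or arrested library 1 (0.0793) or 2 (0.113), and that of Chchd6 without any 1 WT 2-cell library (0.126 to 0.143) or arrested library 1 (0.244) or 3 (0.0598). The Apool and Chchd6 calls were also lost with RLE scaling (0.0526 and 0.066), with no filter (0.0837 and 0.115) and without het 1-cell libraries 1 and 3 (0.108 and 0.121). Of 10 genes of Opa1 regulation and the inner membrane scaffold, 3 rose and 2 fell in WT embryos between the stages, near the shares of all genes (28.5% and 17.9%): Stoml2 (log2 -1.92, SE 0.42), Spg7, a partner of Afg3l2 in the matrix protease (2.84, SE 0.67), Nme4 (6.19, SE 1.62) and Rcc1l (4.77, SE 1.25), with Parl the other that fell. In WT oocytes 3 of these 10 were higher on ribosomes, against 8.95% of all genes, and 1 was lower, against 5.64%. Their median was -0.24. Spg7 (4.13 to 17.2 CPM, log2 2.06, SE 0.36, adjusted p = 0.00428) was higher, as Afg3l2 was. So were Rcc1l (adjusted p = 0.0404) and Afg3l1 (0.0457), while Nme4 was lower (0.0158). Among these list calls only that of Spg7 held under every alternative run. Of the 8 MICOS genes 0 were higher on ribosomes and 2 were lower, Apoo (0.00265) and Micos10 (0.0337), with a median of -0.61.

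Of 9 genes of mitofusin turnover, 3 rose and 1 fell in WT embryos between the stages, against 28.5% and 17.9% of all genes, so the shares were near the background. They were Mtch2 (2.73 to 116 CPM, log2 5.42, SE 1.06), the ubiquitin ligases Mul1 (1.62 to 31.8 CPM, log2 4.29, SE 1.03) and Huwe1 (log2 1.16, SE 0.36), and March5, now named Marchf5 (851 to 253 CPM, log2 -1.75, SE 0.62). The March5 call was lost without any 1 of the 6 WT libraries (adjusted p 0.055 to 0.0995), and that of Huwe1 without WT 1-cell library 2 (0.078) or 3 (0.0621), WT 2-cell library 1 (0.0809), het 1-cell libraries 1 and 3 (0.0621) or the filter (0.0598). In WT oocytes 2 of the 9 genes were higher on ribosomes, against 8.95% of all genes, and 1 was lower, against 5.64%. Vcp, which extracts ubiquitinated proteins from membranes, and the kinase gene Pink1 were higher by 1.49 (SE 0.27) and 2.02 (SE 0.43). Nme3 was lower by a log2 value of -1.25 (SE 0.26). The Pink1 call was lost without WT translatome library 1 (adjusted p = 0.0514) or transcriptome library 2 (0.0536). Of 13 fission genes, 3 rose and 4 fell in WT embryos between the stages, against 28.5% and 17.9% of all genes. Spire1 (382 to 31.3 CPM, log2 -3.61, SE 0.49), the fission GTPase gene Dnm1l (207 to 39.7 CPM, log2 -2.38, SE 0.45) and the outer membrane adaptor gene Fis1 (17.9 to 92.9 CPM, log2 2.38, SE 0.54) were among them. Mief2 was at 0 in WT 1-cell libraries and had a mean of 4.67 CPM in WT 2-cell libraries. Of the 13, 4 were higher in arrested than in WT 2-cell embryos, against 10.1% of all genes, and 0 were lower, against 8.74%. They were Spire1 (adjusted p = 0.0109), Dnm1l (133 CPM, log2 1.75, SE 0.44, adjusted p = 0.0153), Gdap1 (0.0191) and Mff (0.0427). The Dnm1l call was lost without WT 2-cell library 1 (0.0619) or 2 (0.0835), and that of Spire1 without WT 2-cell library 2 (0.0633). The calls of Gdap1 and Mff were lost in 4 and 9 of 12 alternatives. Between het and WT oocytes 2 of the 40 genes of these 4 lists were called in the translatome, near the share of all genes (4.61%): Nme4 (0.332 to 2.27 CPM, log2 2.87, SE 0.61, adjusted p = 0.0218) and the fission regulator Mtfr2 (38.2 to 10.4 CPM, log2 -1.88, SE 0.24, adjusted p = 0.0026). The Nme4 call was lost without het translatome library 1 (0.0854) or 2 (0.087) or WT translatome library 1 (0.124), and the Mtfr2 call held under every alternative run. In the transcriptome 0 of the 40 were called, against 2.55%.

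Genes whose log2 levels over the 15 embryo libraries were most like those of a member were ranked by Pearson correlation among 7091 genes. These had a mean of at least 10 CPM, and names of predicted genes, pseudogenes and clones were left out. Mfn2 itself lay below that mean, at 0 to 1.59 CPM in 1-cell libraries, so its correlations rest partly on values near the floor. For Mfn1 they were Elovl5 (0.937), Rpusd4 (0.925) and Exoc4 (0.921), for Mfn2 Bicral (0.917), Amz2 (0.876) and Atp11b (0.868), and for Opa1 Cntn1 (0.963), Ttc6 (0.962) and Chd7 (0.961). The points share libraries and stage groups, so these values are a description. Between members, the correlation over the same libraries was -0.67 for Mfn1 with Mfn2, -0.85 for Opa1 with Yme1l1 and 0.75 for Opa1 with Oma1. In the 8 oocyte libraries Mfn1 correlated with Mfn2 at 0.92, with Afg3l2 at 0.94 and with Pld6 at 0.92.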

How the data were processed

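Poly(A) RNA was profiled in 8 GV oocyte and 15 embryo libraries. The authors deposited raw read counts per gene in 2 tables, 1 for each kind, with 56196 genes. Per the submitters' processing notes, the tools were featureCounts 1.6.5, HISAT2 2.1.0 and Trim Galore 0.6.4, and the build mm10. Not given in the sources used here are the annotation, the strand setting and how multi-mapping or duplicate reads were treated, so reads of overlapping genes cannot be told apart. Each table stored 28 symbols as dates, of which 27 were restored from the gene ID. Exon lengths and positions are from GENCODE M21, which held 55240 of the IDs.

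Counts were tested with the edgeR 4.0.16 quasi-likelihood test in R 4.3.3 after filterByExpr and TMM scaling, with all groups of a table in 1 model and Benjamini-Hochberg adjustment over 22409 (GV) or 23656 (embryo) genes. Genes with an adjusted p under 0.05 were called. Levels are TMM-scaled CPM per library. SEs derive from the F statistic. Differences of changes are interaction terms. RLE scaling, no filter, DESeq2 1.42.0, a replicate block, leaving out each library, and leaving out het 1-cell libraries 1 and 3 were alternatives, and leaving out all het 1-cell libraries was added after seeing the data. The model was also run on simulated counts, with an outcome not given here. The tables were scaled separately and not tested against each other.

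The 10 members are all named. From the 4 related lists (Opa1 scaffold, MICOS, mitofusin turnover, fission) at most 4 called genes are named per comparison described, in order of p. Parl, and Immt and Chchd3 in the het stage comparison, are named beyond this rule to complete counts. The members and lists were chosen with earlier results of these data known. Translatome and transcriptome libraries of a GV sample share a specimen number in the labels, which pairs them. Deviations of such pairs from their group means correlated at 0.263 (het) and 0.0578 (WT) over 9075 genes. Granulosa, 2-cell, oocyte, blood and oviduct markers are given in the report, and the 7 sperm markers summed to 1.18 to 24.2 CPM in all groups.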

Additional observations from a re-analysis of the deposited data

Results flagged for a closer look

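Mtfr2, a mitochondrial fission regulator gene from the list set beside the fusion genes, differed between genotypes in its ratio of ribosome-bound to total mRNA. The ratio was lower in het than in WT oocytes by a log2 value of -2.65 (SE 0.34, edgeR adjusted p = 0.0254). It was called with RLE scaling, with no filter, by DESeq2 and with the replicate block. The call was lost without any 1 of 7 of the 8 GV libraries: het translatome library 1 (adjusted p = 0.345) or 2 (0.143), het transcriptome library 1 (0.226) or 2 (0.173), WT transcriptome library 1 (0.0626) or 2 (0.0589), or WT translatome library 2 (0.0541). It held without WT translatome library 1. The log2 value was between -2.74 and -2.53 in all 8 of these fits. Ribosome-bound Mtfr2 averaged 38.2 CPM in WT against 10.4 CPM in het oocytes, and its total mRNA averaged 62 against 105 CPM. No fusion gene had such a difference.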

How the results depend on the processing

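Under single alternatives other than leaving out a library, 662 values of single genes kept direction and side of the threshold, 32 lost and 6 gained a call. With libraries left out in turn these numbers were 779, 57 and 4. No called value changed sign, and 91 values uncalled throughout did. RLE scaling moved 3 of 90 group means by over 1 SD. With no filter on low counts the number of fusion genes called fell from 7 to 4 between het 1-cell and 2-cell embryos, from 2 to 1 between arrested and het 2-cell embryos, and from 3 to 1 between arrested and WT 2-cell embryos. Without het 1-cell libraries 1 and 3 it fell from 7 to 1 (het stages), from 2 to 0 (arrested against het 1-cell), from 2 to 0 (against het 2-cell) and from 3 to 1 (against WT 1-cell). Without all het 1-cell libraries it was 0 for arrested against het 2-cell. The cause was not tested.

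The replicate block paired oocyte fractions by specimen and changed no fusion call there. Embryo libraries share only a number, and in no comparison did all 3 same-numbered pairs correlate above 0.1. With that block the count was 0 for arrested against het 2-cell and 1 for arrested against WT 1-cell embryos. The block moved the number of all genes called from 1034 to 670 (translatome between genotypes), from 3 to 7 (fraction by genotype), from 1 to 0 (stage by genotype), from 3283 to 1909 (arrested against het 1-cell) and from 4624 to 3037 (against WT 1-cell).

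With 1 library left out, fusion genes called ranged from 2 to 4 (WT fractions), 0 to 2 (het fractions), 5 to 6 (WT stages and het stages), and, for arrested embryos, 1 to 2 (het 1-cell), 0 to 4 (het 2-cell), 1 to 3 (WT 1-cell) and 1 to 4 (WT 2-cell), and were 0 between genotypes and for both interactions. Where this leaves 1 library of a GV group, it is assumed to vary like the other groups.

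Over all genes, no filter and DESeq2 gave 2113 and 1839 calls against 1034 in the translatome between genotypes, 1554 and 1401 against 572 in the transcriptome, 108 and 108 against 3 for the fraction interaction, and 2883 and 2731 against 1814 for het fractions. DESeq2 gave 80 against 0 and 143 against 1 between genotypes at the 1-cell and 2-cell stage, 79 against 1 for the stage interaction, and 5934, 5029, 7188 and 7226 against 3283, 1986, 4624 and 4455 for arrested embryos against het 1-cell, het 2-cell, WT 1-cell and WT 2-cell. No filter gave 2 against 1 between genotypes at the 2-cell stage. Without het 1-cell libraries 1 and 3 there were 2017 against 8693 (het stages), 0 against 1 (stage interaction), 104 against 3283 and 1253 against 1986 (arrested against het 1-cell and het 2-cell), and without all het 1-cell libraries 1271 against 1986. RLE scaling raised the share of higher calls in the transcriptome between genotypes from 55.4% to 65.7%, and moved the median log2 change of all genes from 0.59 to 0.76 (WT stages), 0.36 to 0.53 (het stages), -0.01 to -0.13 (arrested against het 2-cell) and 0.01 to -0.11 (against WT 2-cell). Low counts limit Miga1, Miga2, Pld6 and 1-cell Mfn2.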
